A study of Mus musculus with 4 samples.

Results

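Immediate early genes and inducible heat shock genes were followed, cell by cell, in the caudal part of mouse embryos at E8.5. The 9 genes were chosen by symbol among the 31055 genes of the count tables: *Fos*, *Fosb*, *Jun*, *Junb*, *Atf3*, *Egr1*, *Ier2*, *Hspa1a* and *Hspa1b*. The embryos came from *Grhl3*+/- intercrosses on a pure C57BL/6 background, and both genotypes therefore share that background. WT embryos were compared with constitutive *Grhl3*-null embryos, in which the gene is lost in every cell and not in 1 tissue. Cells of 5 WT embryos were combined in 1 pool and cells of 3 *Grhl3*-null embryos in another, and 2 droplet reactions were run on each, which gave 4 libraries (WT replicates 1 and 2, *Grhl3*-null replicates 1 and 2). The tissue was digested in 0.25% trypsin for 5 min at 37 °C before the cells of a genotype were pooled, centrifugation was at 4 °C, and the viability was about 95% in both pools. Genotype, embryo and dissociation cannot be told apart between the pools, and p-values compare 2 pools without any spread between embryos.

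Immediate early genes are transcribed within minutes of a stimulus, without new protein synthesis, and their messages are short-lived. *Fos* and *Fosb* encode FOS proteins and *Jun* and *Junb* encode JUN proteins, which pair to form the AP-1 transcription factor, and ATF3 is a stress-induced member of the same leucine zipper superfamily. EGR1 is a zinc finger factor induced through serum response factor, IER2 is a nuclear immediate early protein, and HSPA1A and HSPA1B are the stress-inducible HSP70 chaperones that heat shock factor 1 switches on. The same genes are known to rise when living tissue is digested with enzymes at 37 °C, and several also have normal roles in the embryo, for example in blood vessels and skin.

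The genes were found in the annotation of mm10 (GRCm38, GENCODE release M21) as protein-coding genes. *Fos* lies on chromosome 12 from 85473890 to 85477273, *Fosb* on chromosome 7 from 19302696 to 19310051, *Jun* on chromosome 4 from 95049034 to 95052222 and *Atf3* on chromosome 1 from 191170296 to 191218039. *Junb*, from 84974484 to 84978718, and *Ier2*, from 84661331 to 84662852, share chromosome 8. *Hspa1b*, from 34956436 to 34959238, and *Hspa1a*, from 34969190 to 34972156, are copies on chromosome 17, 9951 bases apart and on the same strand. None of the 9 shares exon sequence with another annotated gene on its own strand, although *Jun*, *Junb*, *Atf3* and *Hspa1a* overlap the loci of *Junos*, *Prdx2*, *Gm24748* and *Gm20481*.

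The sequences just before the start sites give the regulatory context of the genes. RefSeq windows (GRCm38.p6) existed for 7 of the 9, all but *Egr1* and *Ier2*. Their 250 bases before the RefSeq start are used here, written 5′ to 3′ on the gene's strand. The windows of *Fosb* and *Atf3* overlap annotated exons of their own gene. That of *Atf3*, from 191183334 to 191183583, lies inside the locus given above. Capitals mark matches on either strand. The motifs searched were the core of the heat shock element, GAANNTTC, in which N is any base, and the conserved part of the cAMP response element, TGACG. The TATA box was searched as TATAAA. The CCAAT box was searched by the letters of its name, and the AP-1 site as TGACTCA. None of these letters overlapped another match. *Fos* and *Junb* are shown as a FOS and a JUN gene whose levels the results turn on, and the *Hspa1* copies as the pair that could be confused:
Fos, chr12:85473640-85473889, plus strand: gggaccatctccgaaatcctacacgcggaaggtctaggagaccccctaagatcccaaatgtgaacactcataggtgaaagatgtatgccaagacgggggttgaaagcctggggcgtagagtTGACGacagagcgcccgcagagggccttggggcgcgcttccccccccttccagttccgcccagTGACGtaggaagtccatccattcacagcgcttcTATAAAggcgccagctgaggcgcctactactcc
Junb, chr8:84978749-84978998, minus strand: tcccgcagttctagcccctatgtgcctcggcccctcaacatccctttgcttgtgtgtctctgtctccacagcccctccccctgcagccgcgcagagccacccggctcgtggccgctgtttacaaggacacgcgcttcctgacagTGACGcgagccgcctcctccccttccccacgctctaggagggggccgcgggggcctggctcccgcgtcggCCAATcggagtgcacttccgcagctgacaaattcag
Hspa1a, chr17:34972157-34972406, minus strand: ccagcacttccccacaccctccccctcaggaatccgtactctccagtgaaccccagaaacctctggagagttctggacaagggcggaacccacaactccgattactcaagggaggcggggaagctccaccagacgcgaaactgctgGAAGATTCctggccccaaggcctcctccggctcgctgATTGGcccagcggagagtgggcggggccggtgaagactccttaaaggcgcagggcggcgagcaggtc
Hspa1b, chr17:34959239-34959488, minus strand: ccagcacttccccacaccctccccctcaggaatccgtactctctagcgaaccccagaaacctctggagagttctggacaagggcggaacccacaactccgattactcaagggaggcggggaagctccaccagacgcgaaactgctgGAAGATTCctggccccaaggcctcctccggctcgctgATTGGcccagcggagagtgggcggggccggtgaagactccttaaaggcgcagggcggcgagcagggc
The heat shock core GAAGATTC began 104 bases before the start in both *Hspa1* copies. It was otherwise found in *Jun*, as GAATCTTC. Of all 32851 RefSeq windows, 6.69% held this motif. TGACG occurred in *Fos*, at 129 and 66 bases before the start, and also in *Fosb*, *Junb* and *Atf3*, against 17.8% of all windows. TATAAA was in *Fos* (12.4% of all windows) and CCAAT in *Jun*, *Junb* and both *Hspa1* copies (33.8%). Neither TGACTCA (4.46%) nor the serum response element (1.47%) occurred in a window of the 7 genes, which says only that they are not within these letters.

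The *Hspa1* copies could still be counted separately. Their promoter windows were identical at 246 of 248 aligned bases, and their transcripts at 2181 of 2200 aligned bases. The last 400 bases of the 2 transcripts gave no alignment, and 0 of 351 windows of 50 bases taken there from *Hspa1a* occurred in *Hspa1b*. The libraries count tags near the 3′ end, which is where the copies differ.

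The depth was alike in the 4 libraries. After filtering (at least 3000 genes, 7500 UMIs and at most 7% mitochondrial UMIs) 20198 of 24239 cells were kept, 4781 to 5459 in a library, with medians of 33391 to 38070 unique molecular identifiers (UMIs), each of which marks 1 captured transcript. A 3′ library gives 1 tag per molecule whatever the length of the transcript, and levels are therefore given as CPM (UMIs of the gene per 1000000 UMIs of the cells summed) and can be compared between genes. *Grhl3* itself stood at 3.87 and 3.64 CPM in WT and at 0.0531 and 0.0667 CPM in the *Grhl3*-null libraries. Libraries shared 5 to 7 barcodes among kept cells. Cells over the mitochondrial limit made up 6.61% and 6.76% of the WT and 14.6% and 15.3% of the *Grhl3*-null cells. Clustering gave 17 clusters, and 97.4% of the kept cells fell in 14 classes named from the study's marker lists, so a name such as gut-like refers to markers only. In classes as in whole libraries, fewer expressing cells and less RNA per cell are both read as a lower level unless shares of cells are given.

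*Ier2* was by far the most abundant of the 9 genes and the *Hspa1* copies were close to absent. *Ier2* was at 95.0 and 96.8 CPM in WT and at 81.4 and 82.6 CPM in *Grhl3*-null cells, and the genotypes did not overlap. *Jun*, at 27.7 and 26.6 CPM in WT and 24.9 and 27.5 CPM in *Grhl3*-null cells, overlapped between genotypes. *Junb* was at 6.59 and 6.17 CPM in WT and at 5.47 and 5.56 CPM in *Grhl3*-null cells, again without overlap.

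The remaining transcription factor genes were each under 5 CPM. *Fos* had 4.57 and 4.66 CPM in WT and 2.65 and 2.71 CPM in *Grhl3*-null cells. *Fosb* had 2.99 and 2.85 CPM in WT and 1.252 and 1.08 CPM in *Grhl3*-null cells. For both FOS genes the replicates of a genotype lay far closer to each other than to the other genotype. *Egr1* had 2.98 and 2.98 CPM in WT and 2.79 and 2.71 CPM in *Grhl3*-null cells. *Atf3* ran the other way, with 3.21 and 3.07 CPM in WT and 3.90 and 3.79 CPM in *Grhl3*-null cells.

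The heat shock genes gave 75 to 112 UMIs in a whole library. *Hspa1a* was at 0.454 and 0.439 CPM in WT and 0.389 and 0.372 CPM in *Grhl3*-null cells, and *Hspa1b* at 0.331 and 0.344 CPM in WT and 0.495 and 0.438 CPM in *Grhl3*-null cells. No cell of any library held more than 4 UMIs of *Hspa1a* or 2 of *Hspa1b*, whereas single cells reached 58 UMIs of *Jun*, 54 of *Ier2* and 24 of *Egr1*. Between 1.36% and 2.23% of cells had an *Hspa1b* UMI, with 95% Clopper-Pearson limits of 1.07% and 2.69% over these libraries, counting error only. When every cell was thinned to 7500 UMIs the shares were 0.183% to 0.434%.

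**Figure D1:**
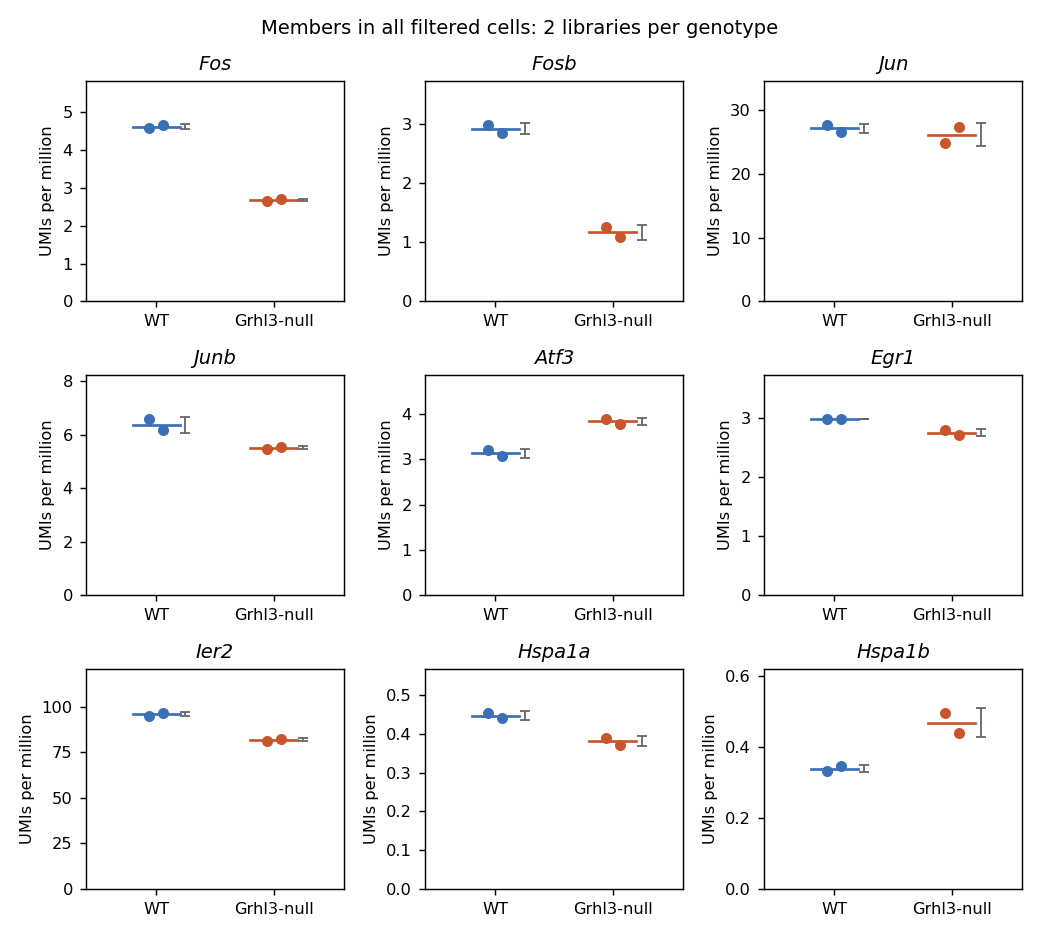
Level of each gene in CPM over all filtered cells (vertical axes, from 0) for WT (blue) and Grhl3-null (orange); points are the 2 libraries of a genotype, coloured lines their mean and grey bars the SD. Fos falls from 4.57 and 4.66 to 2.65 and 2.71 and Fosb from 2.99 and 2.85 to 1.252 and 1.08, while Jun overlaps between genotypes as measured, though not with the class mix held constant.

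Over all filtered cells, the question was which of these genes differed between the genotypes. With the quasi-likelihood test of edgeR (call at an adjusted p under 0.05), 5 of the 9 genes passed, 4 lower and 1 higher in *Grhl3*-null cells. This stands against a background of 35.5% of the 17168 genes tested (2928 higher and 3169 lower; 3793 and 2302 when scaled to total UMIs alone). *Fosb* fell by 1.35 ± 0.09 on the log2 scale (SE, n = 2 against 2; adjusted p = 5.70e-05, edgeR) and *Fos* fell by 0.81 ± 0.05 (adjusted p = 5.46e-05, edgeR). In male cells alone the log2 fold change of *Fosb* was 0.15, the opposite direction, and in female cells -1.505 (values with no test). *Ier2* fell by 0.26 ± 0.02 (adjusted p = 0.000134, edgeR) and *Junb* fell by 0.24 ± 0.05 (adjusted p = 0.00692, edgeR). *Junb* too turned with sex, at 0.13 in female and -0.30 in male cells alone. *Atf3* rose by 0.26 ± 0.06 (adjusted p = 0.0107, edgeR). *Jun* (log2 fold change -0.08, adjusted p = 0.155), *Egr1* (-0.15, 0.0975), *Hspa1a* (-0.26, 0.185) and *Hspa1b* (0.44, 0.0525) did not pass the edgeR test. *Hspa1b* passed when likely doublets were removed or counts were scaled to total UMIs.

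The mix of cell classes differed between libraries, and values with the mix held constant are therefore given as well, without a test. When each of the 12 testable classes was weighted in every library by its mean share of UMIs over the 4 libraries, the log2 ratio of *Grhl3*-null to WT became -0.90 for *Fos* and -1.41 for *Fosb*. For *Atf3* it shrank to 0.08, with 3.65 and 3.41 CPM in WT and 3.87 and 3.59 CPM in *Grhl3*-null libraries, which overlap. *Ier2* (-0.24) and *Junb* (-0.29) stayed close to the unweighted values, and *Hspa1b* stood at 0.35. *Jun* moved to -0.23, with 30.3 and 28.9 CPM in WT and 24.48 and 25.99 CPM in *Grhl3*-null libraries, which do not overlap.

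Each gene had its own pattern over the cell classes. *Atf3* was concentrated in the endothelium-like class (endothelium and haematoendothelial progenitors), where it reached 59.8 and 60.7 CPM in WT and 54.7 and 52.7 CPM in *Grhl3*-null cells. This class held 59.3% of the *Atf3* UMIs of WT and 53.1% of those of *Grhl3*-null libraries on average. In it 73.4% to 80.9% of cells had an *Atf3* UMI (median depth 35462.5 to 39779 UMIs), against 0.493% to 1.39% in the somitic mesoderm-like class (median depth 32498 to 36087 UMIs). Surface ectoderm-like cells, with 8.30 and 5.55 CPM in WT, came next and overlapped with intermediate mesoderm-like cells, with 9.52 and 4.11 CPM.

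The JUN genes were also highest in the endothelium-like class. *Jun* had 142.5 and 134.2 CPM there in WT and 128.8 and 133.8 CPM in *Grhl3*-null cells, followed by gut-like cells at 86.2 and 69.6 CPM in WT and 72.6 and 82.8 CPM in *Grhl3*-null cells. *Junb* had 54.2 and 42.3 CPM in the endothelium-like class of WT and 47.1 and 46.4 CPM in that of *Grhl3*-null. In WT the notochord-like class followed, at 22.3 and 16.5 CPM, and it did not separate from the surface ectoderm-like class at 17.8 and 15.7 CPM.

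The FOS genes followed a different order. *Fos* was highest in erythroid-like cells, at 18.2 and 20.1 CPM in WT and 6.46 and 9.29 CPM in *Grhl3*-null cells. In WT the class called Mesenchyme 2-like came next, at 11.9 and 11.4 CPM, apart from all others. *Fosb* too was highest in erythroid-like cells, at 9.12 and 9.57 CPM in WT and 4.08 and 4.16 CPM in *Grhl3*-null cells. In WT the surface ectoderm-like class was next for *Fosb*, at 6.62 and 4.91 CPM.

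*Egr1*, which lies on chromosome 18 from 34859823 to 34864984, was high in gut-like cells (7.16 and 8.82 CPM in WT, 12.7 and 10.2 CPM in *Grhl3*-null), which overlapped with erythroid-like cells in both genotypes and with notochord-like cells in WT. *Ier2* led in notochord-like cells (236.5 and 189.3 CPM in WT, 151.5 and 151.7 CPM in *Grhl3*-null) and was lowest in erythroid-like cells (29.0 and 23.7 CPM in WT, 15.6 and 19.5 CPM in *Grhl3*-null). Erythroid-like cells were thus highest for both FOS genes and lowest for *Ier2*. *Hspa1a* was highest in erythroid-like cells as well, with a mean of 2.22 CPM in WT, but this rests on 12 UMIs.

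**Figure D2:**
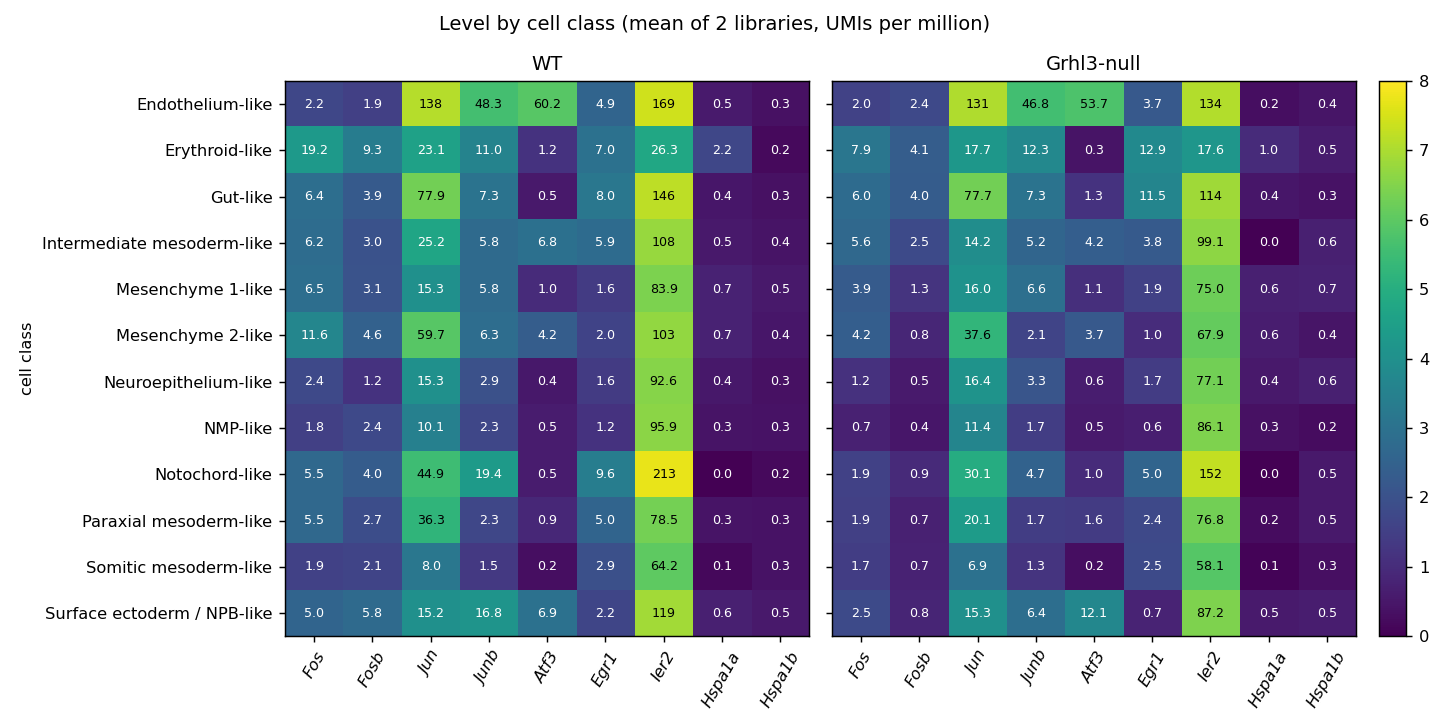
Level of each gene (columns) in each of 12 cell classes (rows; NPB, neural plate border; NMP, neuromesodermal progenitors) for WT (left) and Grhl3-null (right); numbers are the mean CPM of 2 libraries and the colour is log2 of that mean plus 1. Atf3 stands at 60.2 in the WT endothelium-like class and at 6.92 in the next class by mean.

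As a description, levels were correlated over the 48 sums of 12 classes in 4 libraries, as log2(CPM + 1). These points share libraries and pools, so no p is given. *Fos* and *Fosb* were the most alike pair (r = 0.82), followed by *Junb* with *Atf3* (0.67) and *Jun* with *Junb* (0.66). *Hspa1a* and *Hspa1b* were unrelated (r = 0.00). Among 7867 other genes with at least 10 CPM, those most like *Fos* were *Atp5c1* (0.83), *Nfu1* (0.78), *Uqcrc2* (0.78), *Psmd4* (0.77) and *Atp5a1* (0.77), of which *Atp5c1* and *Atp5a1* encode ATP synthase subunits and *Uqcrc2* a subunit of respiratory complex III. For *Hspa1b* the closest genes reached only 0.58 (*Trub1*), 0.52 (*Srp68*), 0.50 (*Lsm7*), 0.49 (*Uspl1*) and 0.49 (*Rtel1*). From cell to cell within a library, the pair with the highest mean r was again *Fos* and *Fosb*, at 0.0768 to 0.203, which in counts this sparse is weak.

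Within classes, the genotype difference was tested in the 12 classes with at least 20 cells in every library, 1 fit a class. The log2 fold change of *Fos* was below 0 in 12 of 12 classes and passed the test in 7, and that of *Ier2* was below 0 in 12 of 12 and passed in 8. *Fosb* passed in 7 of 11 classes, each time lower. *Jun* passed in 3 of 12, *Junb* in 3 of 12 and *Egr1* in 4 of 12, all lower but *Egr1* in gut-like cells. *Atf3* was the only other gene to rise, in 3 of 9 classes. *Hspa1a* and *Hspa1b* had enough UMIs for a test in 5 and 3 classes and passed in none by edgeR or DESeq2. Of these 8 tests 1 had an unadjusted p under 0.05 by edgeR, that of *Hspa1b* in neuroepithelium-like cells (adjusted p = 0.106, edgeR), and with DESeq2 0 had. Counted over genes and classes, 35 of 88 tests passed, 31 lower and 4 higher.

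The number of passing genes has to be read against how often any gene passed in the same class. In the paraxial mesoderm-like class 5 of 9 genes passed, with a background of 21.6%. The counts were 5 of 8 in Mesenchyme 2-like cells (19.8%), 4 of 8 in neuromesodermal progenitor-like cells (17.7%), 3 of 9 in neuroepithelium-like cells (21.1%) and 3 of 9 in Mesenchyme 1-like cells (11.9%). In gut-like cells 3 of 7 passed (20.1%), and in the somitic mesoderm-like class 1 of 6 (13.3%). In the smaller classes 2 of 5 passed in notochord-like cells (3.53%), 1 of 7 in intermediate mesoderm-like cells (3.47%), 1 of 7 in endothelium-like cells (0.656%) and 1 of 6 in erythroid-like cells (0.443%). The surface ectoderm-like class, which includes the neural plate border, had the most, 6 of 7 (14.4%).

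In Mesenchyme 2-like and paraxial mesoderm-like cells *Fos*, *Fosb* and *Jun* all passed, each lower. The sex of the sexed cells shifted with genotype in both classes. It also shifted in other classes, among them the neuroepithelium-like, surface ectoderm-like, intermediate mesoderm-like and gut-like classes. Mesenchyme 2-like cells were 345 and 346 female to 55 and 61 male in WT, and 86 and 102 female to 241 and 252 male in *Grhl3*-null. Paraxial mesoderm-like cells were 386 and 326 female to 61 and 62 male in WT, and 65 and 62 female to 312 and 314 male in *Grhl3*-null. Intermediate mesoderm-like cells, in which *Jun* passed as lower (-0.80), were 78 and 75 female to 15 and 19 male in WT. In *Grhl3*-null they were 20 and 19 female to 65 and 60 male. The part of this shift in the class differences was not tested. In Mesenchyme 2-like cells *Fos* fell from 11.9 and 11.4 to 3.48 and 5.01 CPM (log2 fold change -1.44 ± 0.16, adjusted p = 3.97e-05, edgeR). *Jun* fell there from 60.4 and 59.0 to 36.2 and 39.0 CPM (-0.66 ± 0.05, adjusted p = 2.14e-06, edgeR). *Junb* fell from 6.72 and 5.90 to 1.82 and 2.37 CPM (-1.58 ± 0.21, adjusted p = 0.000153, edgeR). None of these overlapped between genotypes, but the share of all genes without overlap in this class is not given here. In paraxial mesoderm-like cells *Jun* fell from 36.1 and 36.5 to 20.4 and 19.9 CPM (-0.88 ± 0.05, adjusted p = 1.73e-08, edgeR). *Egr1* fell there from 5.17 and 4.78 to 2.44 and 2.43 CPM (-1.06 ± 0.14, adjusted p = 0.000102, edgeR).

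The endothelium-like and gut-like classes gave other values. In the endothelium-like class, where *Jun*, *Junb* and *Atf3* were highest, *Jun* had a log2 fold change of -0.09 ± 0.07, *Atf3* of -0.18 ± 0.08 and *Junb* ranges that overlapped, and *Ier2* alone passed (-0.34 ± 0.06, adjusted p = 0.0247, edgeR). Leaving out single libraries ended this call in 2 of 4 cases, with an adjusted p of up to 0.762. In gut-like cells *Fos* went from 4.75 and 7.96 to 6.99 and 5.04 CPM and *Fosb* from 3.85 and 3.87 to 4.40 and 3.55 CPM, and both overlapped. *Egr1* rose there by 0.50 ± 0.14 (adjusted p = 0.0163, edgeR), a call that 2 of 4 fits without a library lost. *Atf3* rose there from 0.619 and 0.309 to 1.13 and 1.37 CPM (adjusted p = 0.0281, edgeR), and 0 of 4 fits without a library kept the call. The sexed gut-like cells were 151 and 148 female to 82 and 61 male in WT. In *Grhl3*-null they were 135 and 116 female to 216 and 209 male. The part of this shift in the gut-like values was not tested.

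**Figure D3:**
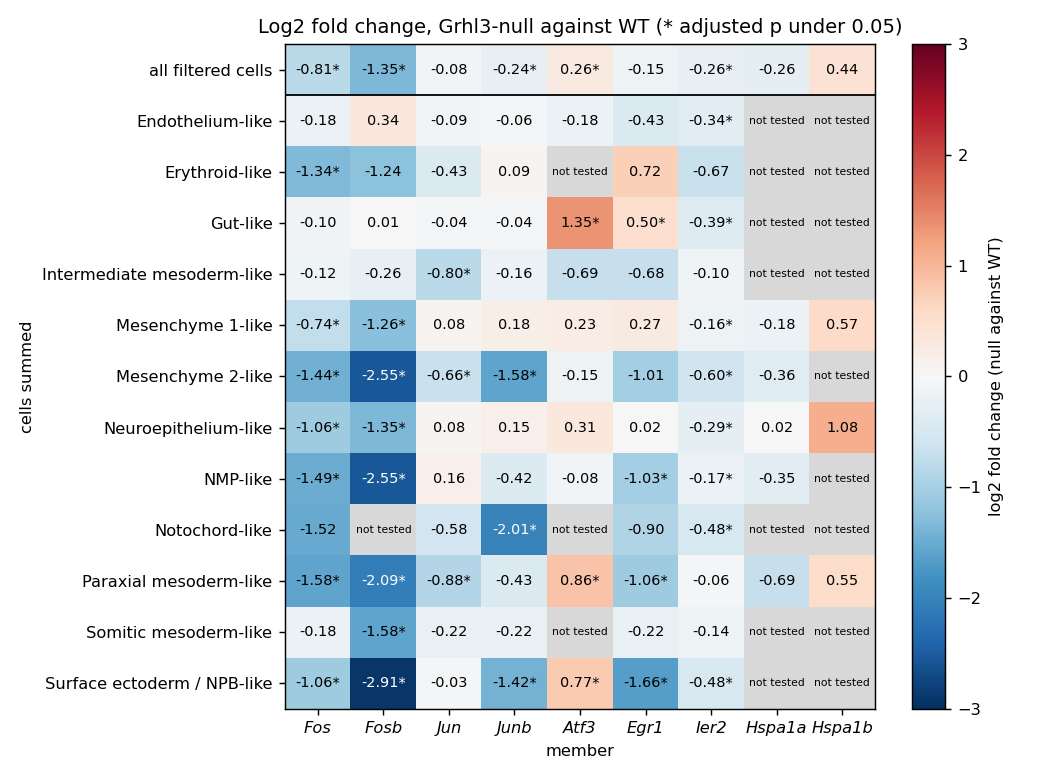
Log2 fold change of Grhl3-null against WT for each gene (columns) over all filtered cells (top row) and in each of 12 cell classes; blue is lower and red higher in Grhl3-null, an asterisk marks an adjusted p under 0.05 and grey cells had too few UMIs for a test. Fosb ranges from -2.91 in surface ectoderm-like cells to 0.34 in endothelium-like cells.

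The surface ectoderm-like class expresses *Grhl3* in WT, at 32.8 and 26.2 CPM, against 0.366 and 0.584 CPM in *Grhl3*-null. In it *Junb* fell from 17.8 and 15.7 to 6.37 and 6.43 CPM (-1.42 ± 0.13, adjusted p = 1.61e-06, edgeR). *Fosb* fell from 6.62 and 4.91 to 0.952 and 0.584 CPM (-2.91 ± 0.30, adjusted p = 7.34e-06, edgeR). *Fos* fell from 5.41 and 4.59 to 2.34 and 2.59 CPM (-1.06 ± 0.22, adjusted p = 0.00418, edgeR). These 3 genes separated the genotypes without overlap, but the share of all genes that did so in this class is not given here. The sexed cells of this class were 175 and 144 female to 49 and 55 male in WT. In *Grhl3*-null they were 113 and 123 female to 143 and 127 male. The part of this shift in the differences of the class was not tested.

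In the same class *Ier2* fell from 119.4 and 118.5 to 86.4 and 88.0 CPM (-0.48 ± 0.05, adjusted p = 6.87e-06, edgeR), and *Egr1* from 1.98 and 2.41 to 0.439 and 1.00 CPM (-1.66 ± 0.39, adjusted p = 0.00830, edgeR). *Jun* was at 17.4 and 13.1 CPM in WT and 15.3 and 15.3 CPM in *Grhl3*-null cells and overlapped. *Atf3* rose from 8.30 and 5.55 to 14.6 and 9.52 CPM (0.77 ± 0.20, adjusted p = 0.0147, edgeR). The *Atf3* call was lost in 2 of 4 fits that left out a library, as was that of *Egr1*, while *Junb*, *Fosb* and *Ier2* kept theirs in 4 of 4. *Fos* kept its call in 3 of 4, with log2 fold changes of -1.16 to -0.94.

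Whether the difference was larger in this class than in the remaining cells was tested as an interaction, with the library as a block. Neither the sex of the cells nor the class mix of the remaining cells was held constant in this test. For 4 of the 9 genes the fall was larger in the surface ectoderm-like class than in the remaining cells summed, against a background of 10.5% of 16522 genes. Single classes among the remaining cells fell further for 2 of these genes. *Junb* stood at -2.01 in notochord-like and -1.58 in Mesenchyme 2-like cells, and *Ier2* at -0.60 in Mesenchyme 2-like cells. *Fosb* and *Egr1* had their lowest log2 fold change in the surface ectoderm-like class. The difference of the log2 fold changes was -1.33 ± 0.14 for *Junb* (adjusted p = 9.40e-07, edgeR) and -1.71 ± 0.33 for *Fosb* (adjusted p = 0.00114, edgeR). It was -0.26 ± 0.05 for *Ier2* (adjusted p = 0.000836, edgeR) and -1.58 ± 0.39 for *Egr1* (adjusted p = 0.00832, edgeR). *Egr1* lost the call without *Grhl3*-null replicate 1 (adjusted p = 0.169, edgeR) and with DESeq2 (adjusted p = 0.0697). *Fos* (-0.27, adjusted p = 0.572), *Jun* (0.04, 0.898) and *Atf3* (0.60, 0.0875) did not pass. *Atf3* passed without WT replicate 1 (adjusted p = 0.00193, edgeR) and without *Grhl3*-null replicate 2 (0.000167).

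Markers of other cells were summed in the surface ectoderm-like class. The 7 haemoglobin genes, which mark red cells, stood at 273.3 CPM in WT replicate 1 and at 26.5 CPM in WT replicate 2, against 31.7 and 33.7 CPM in *Grhl3*-null, so 1 library stood apart. Of the 5 tested there 4 passed as lower in *Grhl3*-null. Without WT replicate 1 the interaction stood at -1.27 for *Junb*, -1.48 for *Fosb*, -0.23 for *Ier2* and -1.73 for *Egr1*. It stood at -0.12 for *Fos*, 0.24 for *Jun* and 0.92 for *Atf3*. The part of red cell RNA in the results for the 9 genes was not tested. The 8 visceral endoderm genes stood at 1.37 and 1.77 CPM in WT and 7.61 and 7.85 CPM in *Grhl3*-null, and 3 of 3 tested passed as higher. The 7 macrophage genes stood at 1.22 and 1.45 CPM in WT and 1.10 and 1.09 CPM in *Grhl3*-null. The part of visceral endoderm RNA in the results for the 9 genes was not tested. Of 27 other immediate early genes, 23 could be tested in this class, in which 14.4% of all genes passed, and 5 passed, all lower, with a median log2 fold change of -0.12 against 0.00 for all genes there. Of 22 heat shock factor targets and chaperones, 4 of 21 passed, 2 in each direction, with a median of 0.03.

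The sex of the cells divided each pool. Cells were called male or female from Y-linked genes and *Xist*, so male and female cells of a pool stem from different embryos. As digestion came before pooling, sex, embryo and dissociation cannot be told apart within a pool. Male cells were 26.5% and 27.0% of the sexed cells in WT and 55.6% and 57.5% in *Grhl3*-null libraries, and how many embryos of each sex were pooled is not given in the sources used here. This comparison was added after the values above were known.

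Within the WT pool, *Fos* stood at 5.85 and 5.59 CPM in female and at 2.01 and 3.03 CPM in male cells. In the *Grhl3*-null pool it stood at 3.53 and 3.86 CPM in female and at 2.11 and 2.13 CPM in male cells. Male cells of both genotypes overlapped, and female cells did not. *Fosb* stood at 3.99 and 3.79 CPM in female and 1.149 and 1.06 CPM in male WT cells, and at 1.498 and 1.27 CPM in female and 1.35 and 1.11 CPM in male *Grhl3*-null cells. Only the female cells of the WT pool were high for *Fosb*. In all 12 classes *Fosb* was higher in female than in male WT cells in both libraries, whereas in *Grhl3*-null this held in 2 classes.

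A similar order was seen with the mix of the 12 classes held constant over libraries and sexes. With these weights *Fosb* remained at 4.14 and 4.04 CPM in female and 1.02 and 1.08 CPM in male WT cells, and at 1.29 and 1.08 CPM in female and 1.22 and 1.02 CPM in male *Grhl3*-null cells. *Fos* remained at 6.12 and 6.04 CPM in female WT cells, with 3.50 and 3.68 CPM in female *Grhl3*-null cells. Male cells had 1.95 and 3.19 CPM of *Fos* in WT and 1.86 and 1.86 CPM in *Grhl3*-null. With these weights, unlike without them, male cells of the genotypes did not overlap for *Fos*, and *Grhl3*-null was the lower in both sexes. The pre-somitic mesoderm-like class, which is not among the 12, had 504 and 485 female but 0 and 2 male cells in WT, and 3 cells in each *Grhl3*-null library.

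*Jun*, *Egr1*, *Junb* and *Ier2* did not share a pattern over the sexes. *Jun* was at 30.9 and 30.2 CPM in female and 22.7 and 21.4 CPM in male WT cells, and at 25.2 and 26.3 CPM in female and 27.2 and 31.1 CPM in male *Grhl3*-null cells, so *Grhl3*-null was the lower genotype in female and the higher in male cells, without overlap in either. With the class mix held constant *Jun* stood at 33.9 and 32.6 CPM in female WT and 25.3 and 24.2 CPM in female *Grhl3*-null cells, while male cells overlapped, with 25.3 and 22.7 CPM in WT and 24.7 and 27.2 CPM in *Grhl3*-null. *Egr1* was at 3.76 and 3.35 CPM in female and 1.31 and 2.24 CPM in male WT cells, against 3.29 and 3.29 CPM in female and 2.74 and 2.39 CPM in male *Grhl3*-null cells. *Junb* was at 7.12 and 6.63 CPM in female WT and 6.87 and 8.47 CPM in female *Grhl3*-null cells, and at 5.92 and 5.85 CPM in male WT and 5.10 and 4.52 CPM in male *Grhl3*-null cells. For *Junb* the genotypes overlapped in female cells and did not in male cells. With the class mix held constant they overlapped in neither sex and *Grhl3*-null was the lower in both, with 7.13 and 6.60 against 5.68 and 6.45 CPM in female and 6.01 and 5.47 against 5.09 and 4.45 CPM in male cells. *Ier2* was lower in *Grhl3*-null cells of both sexes without overlap, at 99.2 and 99.2 against 82.0 and 87.5 CPM in female and at 88.5 and 93.8 against 81.5 and 81.0 CPM in male cells.

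Tested as an interaction of genotype and sex, 5 of 9 genes passed, against a background of 37.5% of 16165 genes. The genotype difference was more negative in female than in male cells for *Fosb* (by -1.66 ± 0.18 on the log2 scale, adjusted p = 6.09e-06, edgeR), *Jun* (-0.66 ± 0.05, adjusted p = 4.86e-07, edgeR), *Egr1* (-0.67 ± 0.22, adjusted p = 0.0278, edgeR) and *Atf3* (-0.47 ± 0.17, adjusted p = 0.0421, edgeR), and more positive for *Junb* (0.42 ± 0.13, adjusted p = 0.0225, edgeR). This test did not hold the class mix constant. *Fos* did not pass (-0.41 ± 0.18, adjusted p = 0.0931, edgeR), but it passed without WT replicate 2 (-0.75, adjusted p = 0.000573, edgeR) and stood at -0.11 without WT replicate 1 (adjusted p = 0.676, edgeR). *Fosb* and *Jun* passed whichever library was left out and with DESeq2, which called none of the other 3. *Egr1* and *Atf3* were lost without WT replicate 1 (adjusted p = 0.337 and 0.216, edgeR) or *Grhl3*-null replicate 1 (0.143 and 0.350), and *Junb* without *Grhl3*-null replicate 2 (0.285).

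**Figure D4:**
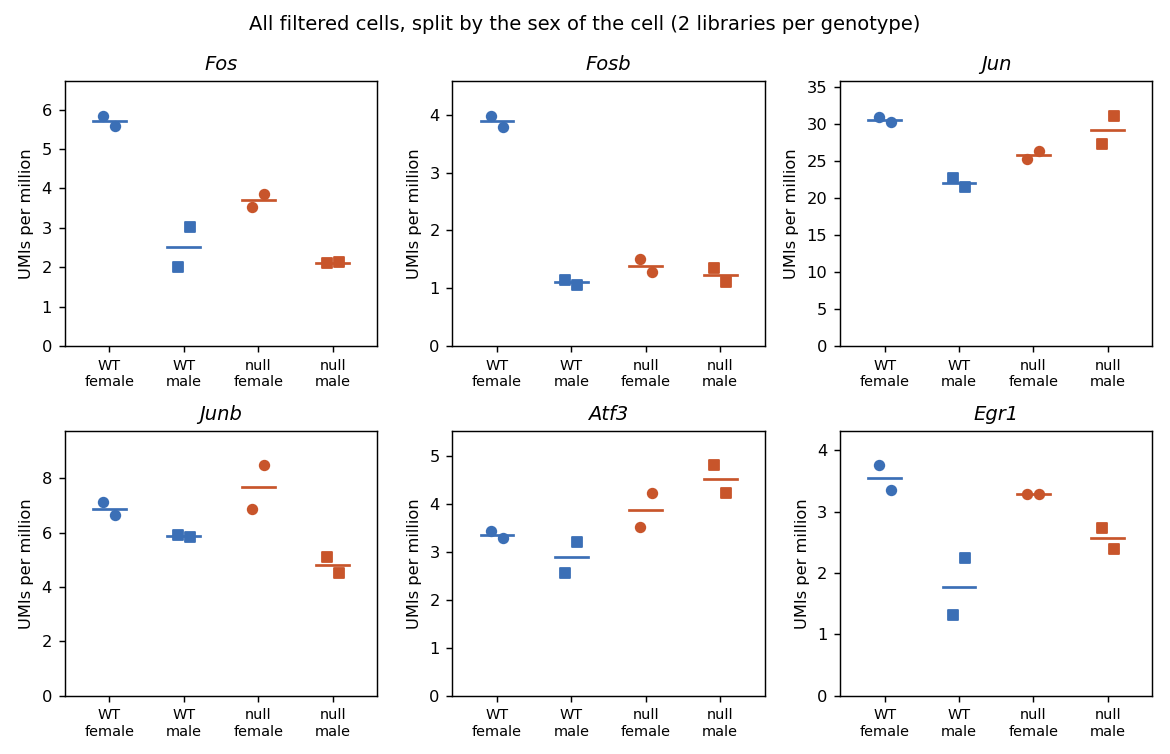
Level in CPM (vertical axes, from 0) over all filtered cells called female (circles) or male (squares) in WT (blue) and Grhl3-null (orange); points are the 2 libraries and lines their mean. Fosb sits at 3.99 and 3.79 in female WT cells and between 1.06 and 1.498 in the other 3 groups.

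In the surface ectoderm-like class the genes differed in how the sexes compared. *Junb* was lower in *Grhl3*-null cells of both sexes: 16.4 and 16.7 against 8.31 and 8.10 CPM in female cells, and 19.6 and 12.4 against 4.92 and 4.73 CPM in male cells. *Fosb* was at 8.61 and 6.74 CPM in female WT cells and at or under 1.54 CPM in male WT, female *Grhl3*-null and male *Grhl3*-null cells. The low values rest on few *Fosb* UMIs, 4 and 3 in male WT, 5 and 2 in female *Grhl3*-null and 7 and 5 in male *Grhl3*-null cells. *Fos* was at 6.98 and 6.37 CPM in female WT and 3.46 and 4.05 CPM in female *Grhl3*-null cells, while male cells were at 1.152 and 1.24 CPM in WT and 1.13 and 1.40 CPM in *Grhl3*-null. No test was made within the sexes here.

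*Atf3* in this class was highest in male *Grhl3*-null cells. They had 24.5 and 16.3 CPM, against 2.94 and 2.99 CPM in female *Grhl3*-null cells, while WT showed the reverse order, 3.84 and 1.86 CPM in male and 10.1 and 6.86 CPM in female cells. An *Atf3* UMI was found in 34.3% and 27.6% of male *Grhl3*-null cells, against 8.94% to 17.4% in the other groups. Of the male *Grhl3*-null cells 26 of 143 and 11 of 127 had 3 or more UMIs, with 81.0% and 65.6% of the UMIs. Of female WT cells 10 of 175 and 8 of 144 had as many, with 71.0% and 66.1% of the UMIs. No female *Grhl3*-null cell, of 113 and 123, reached 3 UMIs. The male *Grhl3*-null cells with 3 or more UMIs carried 73.8 and 74.1 CPM summed over the 15 endothelium markers. Cells of the same libraries, sex and class without *Atf3* had 119.5 and 134.4 CPM, and the endothelium-like class had 5457.5 to 5741.3 CPM. In the same *Atf3*-rich cells the 15 surface ectoderm markers summed to 6061.7 and 5982.6 CPM, against 5356.0 and 5672.9 CPM in the cells without *Atf3*. The *Atf3*-rich cells were deeper, with medians of 49665 and 43160 UMIs against 40699.5 and 36751.5. Among female WT cells the endothelium markers summed to 183.8 and 172.7 CPM with 3 or more *Atf3* UMIs. Those without *Atf3* had 170.1 and 164.3 CPM. Whether RNA of other cells contributes to *Atf3* in this class was not tested.

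**Figure D5:**
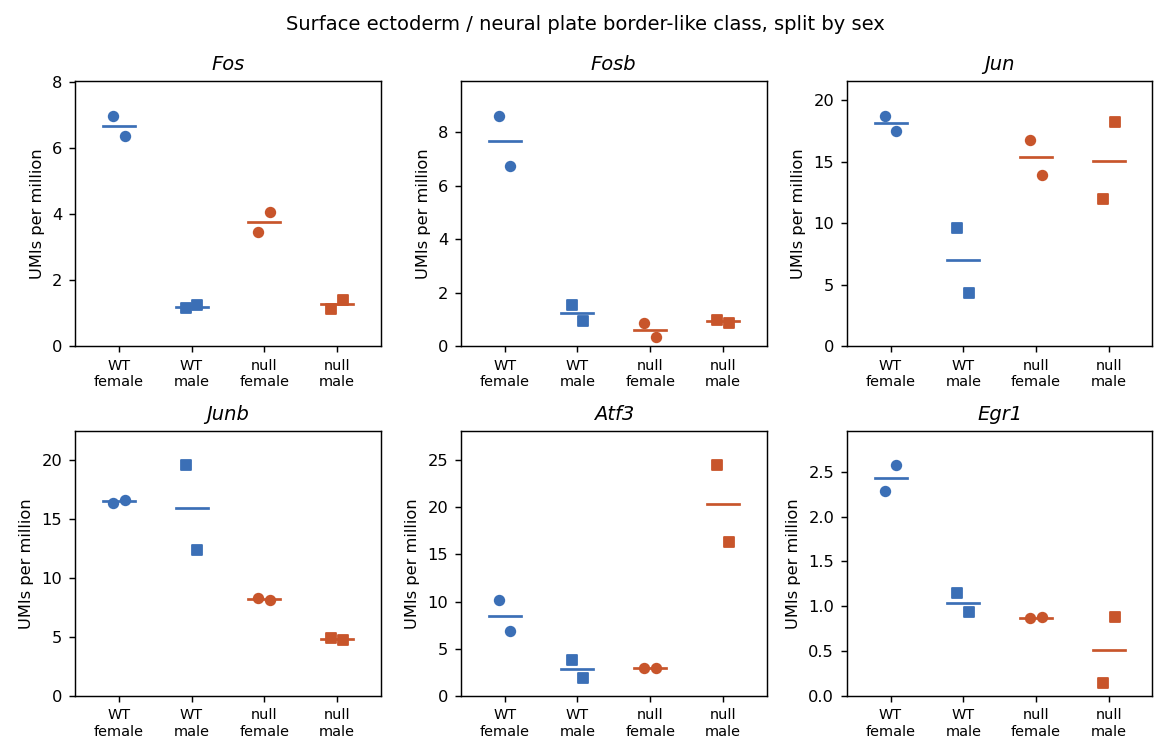
Level in CPM (vertical axes, from 0) in the surface ectoderm-like class, for cells called female (circles) or male (squares) in WT (blue) and Grhl3-null (orange); points are the 2 libraries and lines their mean. Junb is lower in Grhl3-null cells of both sexes, Fosb is high only in female WT cells (8.61 and 6.74), and Atf3 is high in male Grhl3-null cells (24.5 and 16.3). The Fosb points outside female WT cells rest on 2 to 7 UMIs each.

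Cells were also split by their mitochondrial share, without separating classes or sexes. Among kept cells, those above the overall median share had more *Fos* than those at or under it in each of the 4 libraries: 5.66 against 3.67 and 5.801 against 3.45 CPM in WT, and 3.35 against 1.86 and 3.42 against 1.73 CPM in *Grhl3*-null. *Jun* (35.6 against 21.1 and 32.3 against 20.6 CPM in WT, 30.9 against 18.2 and 32.6 against 20.4 CPM in *Grhl3*-null), *Junb*, *Egr1*, *Fosb*, *Atf3* and *Ier2* were also higher in the upper part in all 4 libraries. *Hspa1b* was mixed, with 0.312 against 0.346 and 0.334 against 0.355 CPM in WT and 0.565 against 0.416 and 0.477 against 0.385 CPM in *Grhl3*-null. *Hspa1a* was higher in the upper part in 3 of 4 libraries. *Fos* was lower in *Grhl3*-null than in WT on both sides of the median. Cells over the mitochondrial limit, of which *Grhl3*-null libraries had more, are not among these kept cells. The part of the mitochondrial share in the levels was not tested. Class and sex were not held constant in this split, and whether it follows cell condition or cell class was not tested. How many other genes were higher in the upper part is not given here.

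The cells removed by the filters differed by gene. Cells over the mitochondrial limit had 6.16 and 6.79 CPM of *Egr1* in WT and 6.06 and 5.51 CPM in *Grhl3*-null, above the kept cells of all libraries. Cells under the gene minimum had 10.4 and 14.8 CPM of *Atf3* in WT and 9.17 and 9.79 CPM in *Grhl3*-null, against 3.07 to 3.90 CPM in kept cells. *Fos* in cells over the limit was at 6.16 and 6.39 CPM in WT and at 6.98 and 4.05 CPM in *Grhl3*-null, and the genotypes overlapped there. These sums are small, 2271136 to 6169642 UMIs over the mitochondrial limit in a library.

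Lists of related genes were read over all cells, where 35.5% of all genes passed. The other AP-1 subunits gave 4 calls of 6 tested (of 7 listed), 3 higher and 1 lower, and *Jund*, the broadly expressed JUN gene, rose from 66.7 and 71.2 to 75.4 and 82.7 CPM (log2 fold change 0.17). Of 27 other immediate early genes 25 were tested and 10 passed, 4 higher and 6 lower, with a median of -0.01 against 0.00 for all genes. *Btg2*, an antiproliferative gene that is also a marker of the pre-somitic class, fell from 41.6 and 43.4 to 21.4 and 21.4 CPM (-1.02), whereas *Gadd45g* (0.33) and *Myc* (0.31) rose.

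Of the 22 heat shock factor targets and chaperones 10 passed, all lower, with a median of -0.08. The abundant constitutive chaperone *Hspa8* had 2377.8 and 2271.4 CPM in WT and 2179.5 and 2168.0 CPM in *Grhl3*-null (-0.13), and *Dnaja1* (-0.12) and *Hspd1* (-0.12) were similar. Heat shock factors gave 1 call of 3 tested (of 4 listed), *Hsbp1*, a negative regulator of heat shock factor 1, at -0.09.

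Among upstream factors of immediate early genes, *Creb1* passed as higher (0.07) and *Srf*, the serum response factor, as lower (-0.16). Among 10 feedback genes of growth factor signalling 5 passed, 4 lower, among them *Etv4* (-0.37) and *Dusp6* (-0.29), and 1 higher, *Dusp5* (0.31). The unfolded protein and integrated stress response gave 4 calls of 12, with *Asns* at -0.21, *Sdf2l1* at 0.13 and *Xbp1* at 0.12. The oxidative stress genes gave 0 of 5 by edgeR, with 1 of 5 at an unadjusted p under 0.05.

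Markers of visceral endoderm, red cells and macrophages were read over all cells as well. The visceral endoderm genes *Ttr*, *Apoa1* and *Afp* were also among the top genes of a gut-like cluster. The gut-like class had 277 and 242 cells in WT and 400 and 384 cells in *Grhl3*-null. Visceral endoderm genes rose, 7 of 8 by the edgeR test, from a sum of 29.97 and 29.45 to 81.0 and 84.7 CPM, led by *Ttr* (11.3 and 15.2 to 41.9 and 43.3 CPM) and *Apoa1* (6.70 and 5.35 to 13.7 and 17.9 CPM). Haemoglobin genes summed to 2423.7 and 1778.2 CPM in WT and 1753.2 and 2103.3 CPM in *Grhl3*-null, with 1 of 7 higher (*Hbb-bs*, 0.34) and 1 lower (*Hbb-y*, -0.55). Macrophage genes summed to 1.56 to 1.76 CPM, nearly all *Cd68*, with *C1qb* at 0 in every library and *Ptprc* at 0, 0, 0 and 1 UMI. Of these 7 genes 2 could be tested and 1 passed, *Csf1r*, which is named after its values were seen and had 15, 23, 55 and 56 UMIs. The part of these cells in the levels of the 9 genes over all cells was not tested.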

How the data were processed

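Single cells were measured with 10x 3′ v3.1 reactions, and the deposited filtered matrices hold raw UMI counts per gene and cell, which the authors made with Cell Ranger 3.0.0 on mm10. Values of the authors' own comparisons were not used. Per library, 226723903, 220747840, 226059247 and 209833527 UMIs were kept (WT 1, WT 2, *Grhl3*-null 1 and 2). Cells that met the minimum of 3000 genes and 7500 UMIs and the mitochondrial limit of 7% were clustered with Seurat 5.3.0 and sctransform 0.4.2 (3000 variable features, 30 components, resolution 0.4) in R 4.3.3, and clusters were named from marker lists. Doublets were kept, and the 5% of cells with the highest Scrublet score (scanpy 1.11.5) were removed as an alternative. UMIs were summed per library and class and tested with edgeR 4.0.16 (quasi-likelihood, TMM, filterByExpr, Benjamini-Hochberg adjustment over all genes tested), and with DESeq2 1.42.0 as an alternative. The scripts were tested on simulated data. A cell was called male from 2 or more UMIs over 4 Y-linked genes with no more than 2 *Xist* UMIs, and female from 3 or more *Xist* UMIs with no more than 1 Y-linked UMI. The 9 genes and the lists were chosen with earlier results of these data known. Other genes named are, per list, up to 3 called genes with the largest change and at least 10 CPM, and the 5 genes most like *Fos* and *Hspa1b*. One gene that this rule names is not reported here. The replicates are 2 reactions of 1 pool, and the deviations of same-numbered libraries were unrelated (r = 0.0081 over 17168 genes), so the number does not pair them. Sequences were aligned with blastn 2.17.0.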

Additional observations from a re-analysis of the deposited data

Results flagged for a closer look

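The genotype difference of 4 genes was not the same in the surface ectoderm-like class as in the remaining cells, by the interaction test of edgeR. Neither the sex of the cells nor the class mix of the remaining cells was held constant in it. *Junb* and *Ier2* fell further in some single classes among the remaining cells. The log2 fold change was lower in that class by -1.71 for *Fosb*, -1.33 for *Junb*, -1.58 for *Egr1* and -0.26 for *Ier2*. The call of *Egr1* was lost with DESeq2 (adjusted p = 0.0697) and without *Grhl3*-null replicate 1 (adjusted p = 0.169, edgeR).

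The genotype difference also differed between female and male cells for 5 genes, by the same kind of test, which was added after the values were seen. Female minus male, the difference of the log2 fold changes was -1.66 for *Fosb*, -0.66 for *Jun*, -0.67 for *Egr1*, -0.47 for *Atf3* and 0.42 for *Junb*. Of all genes tested 37.5% passed this test, and sex, embryo and dissociation cannot be told apart within a pool. The test did not hold the class mix constant. The calls of *Egr1*, *Atf3* and *Junb* were lost with DESeq2 (adjusted p = 0.224, 0.376 and 0.265).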

How the results depend on the processing

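Over all cells 6097 genes and 5 of the 9 passed. The number of genes was 3572 with cells thinned to 7500 UMIs, 3995 with DESeq2 and 4554 to 5601 without single libraries, which left 5 to 7 of the 9; a genotype then rests on 1 library that is assumed to vary like the others. Thinning lost the call of *Atf3* (adjusted p = 0.135, edgeR). Scaling to total UMIs gave 3793 higher and 2302 lower genes in place of 2928 and 3169. *Fosb* was at 0.15 in male cells only and *Junb* at 0.13 in female cells only, on the log2 scale. Within classes, 35 calls became 16 with DESeq2, which gave an adjusted p for 49 of 88 tests, 28 to 33 without single libraries, 32 at resolution 0.8 and 32 with the gene lists left out of clustering. In the surface ectoderm interaction DESeq2 called 808 genes against 1741, and fits without single libraries called 1314 to 1518 genes and 3 to 5 of the 9. For female against male cells DESeq2 called 2430 genes against 6058 and 2 of the 9 genes against 5, and fits without single libraries 4646 to 5650 genes and 3 to 7 of the 9. The cause of these changes was not tested. With the replicate block 7048 genes and 5 of the 9 passed over all cells, and 36 tests within classes. Precision for *Hspa1a* and *Hspa1b* is limited by 75 to 112 UMIs a library.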
